A study of Mus musculus with 18 samples.

Results

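The low-contact valleys of mouse chromosome 10 are stretches of the chromosome that the Ifng gene, which lies on it, hardly touched in naive T cells. They were found in contact maps of Ifng by dividing chromosome 10 into 500-kb bins. A bin was a member when its centre lay more than 5 Mb from the position taken for the Ifng bait, when it held 20 or more probes, and when its mean signal was below 0.2 in both arrays of naive cells. The signal is the log2 ratio of contact DNA to genomic DNA, after subtraction of the median of all probes on other chromosomes. The median probe of those chromosomes thus reads 0, and their bin means averaged somewhat above 0, with values given below. Of 233 eligible chromosome 10 bins, 64 were members, a share of 27.5%, and the other 169 serve as the comparison. The genome as a whole had 5026 bins with enough probes. The members were thus chosen by the naive values, so low naive signal in them is a description, and differences from naive cells were not tested.

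The study mapped contacts by 4C, in which crosslinked chromatin is cut and ligated, so that DNA lying near a chosen gene, the bait, is joined to it and can be amplified from it and read on a tiling array. The groups used here, each with 2 arrays labelled as separate replicates, were Ifng-bait maps of CD4 T cells in the naive, Th1 and Th2 states, of Stat4 KO Th1 cells (cells lacking the transcription factor Stat4 and put through the Th1 condition) and of 3T3-L1 cells, a mouse fibroblast line that can become adipocytes. Il4-bait maps of naive, Th1, Th2 and Stat6 KO Th2 cells, with the bait on chromosome 11, gave the level of chromosome 10 without a bait on it. The labels give no strain, age, culture conditions or Cre driver, describe the 3T3-L1 arrays as T cells in one field, and state that 1 array of the series came from a pool without saying which.

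Interferon gamma, the product of Ifng, is the hallmark cytokine of Th1 cells. Th2 cells, which make interleukin 4, keep the gene silent, and the transcription factor Stat4 carries the interleukin 12 signal that drives the Th1 programme. In interphase nuclei, contacts of a gene fall off with distance along its chromosome. Active, gene-rich chromatin and silent, gene-poor chromatin tend to gather separately, so a 4C map far from the bait shows peaks and valleys rather than a smooth slope. No genome sequence or annotation of the array's build was used, so the valleys are given by mm8 position and cytogenetic band, and whether a bin lies in an exon, an intron or between genes was not analysed here.

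Both arrays of a group correlated over the 64 bins at r = 0.453 for naive, 0.229 for Th1, 0.835 for Th2, 0.763 for Stat4 KO Th1 and 0.861 for 3T3-L1 cells, values that describe bins sharing probes and arrays. The array labelled Th1 replicate 2 stood apart. Over all probes it correlated at 0.149 with the other Ifng Th1 array and at 0.347 with replicate 2 of the Il4-bait Th2 cells, so the comparisons with Ifng Th1 maps are given with and without it. On the bait chromosome it did not stand apart in this way. Over the 169 other chromosome 10 bins the 2 Th1 arrays correlated at 0.907, beside 0.882 to 0.955 in the other Ifng groups. The naive arrays correlated at 0.955 there, and their lower value over the members comes from bins all chosen below 0.2. Signal 1 to 2 Mb from the bait also differed: it was 2.44 ± 0.20 in naive (SD, n = 2 here and below), 1.14 ± 0.29 in Th1, 2.69 ± 0.17 in Th2, 1.87 ± 0.042 in Stat4 KO Th1 and 1.55 ± 0.0014 in 3T3-L1 cells. Th1 maps thus had the lowest signal near the bait as well as a low signal in the valleys, and the part of this overall scale in the comparisons below was not tested beyond the rescaled fit given with them. As a percentage of the mean log2 ratio 1 to 2 Mb from the bait, which is no ratio of contact levels, the mean of the valley bins was 5.25% in Th1, 8.68% in Th2, 8.61% in Stat4 KO Th1 and 11.9% in 3T3-L1 cells. On that scale Th1 cells were still the lowest of the 4, the gap to Th2 cells was narrower, and 3T3-L1 cells ranked above Th2 cells.

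The 64 bins formed 24 valleys with a total length of 32 Mb. Of these valleys 11 were single bins and 7 had 4 or more bins and held 39 of the 64. The valleys lay mainly on the long stretch between the centromere and Ifng, with 60 bins there and 4 bins in 2 valleys on the telomeric side. Members held 54 to 95 probes each, with a mean of 75.7 ± 9.10 (SD over bins) against 78.0 ± 11.2 in the other bins, and 4845 probes in all. Naive signal in members averaged 0.063 and 0.038 in the 2 arrays, and the other chromosome 10 bins averaged 0.85 and 0.87. The bins nearest the threshold on the inside were chr10:123500001-124000000, at 0.19 and 0.12, chr10:38000001-38500000, at 0.19 and 0.014, and chr10:105000001-105500000, at 0.18 and 0.12. Those nearest on the outside were chr10:73000001-73500000, at 0.012 and 0.20, chr10:9000001-9500000, at 0.20 and 0.18, and chr10:51000001-51500000, at -0.021 and 0.21, so that 1 array kept some bins out.

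**Figure D1:**
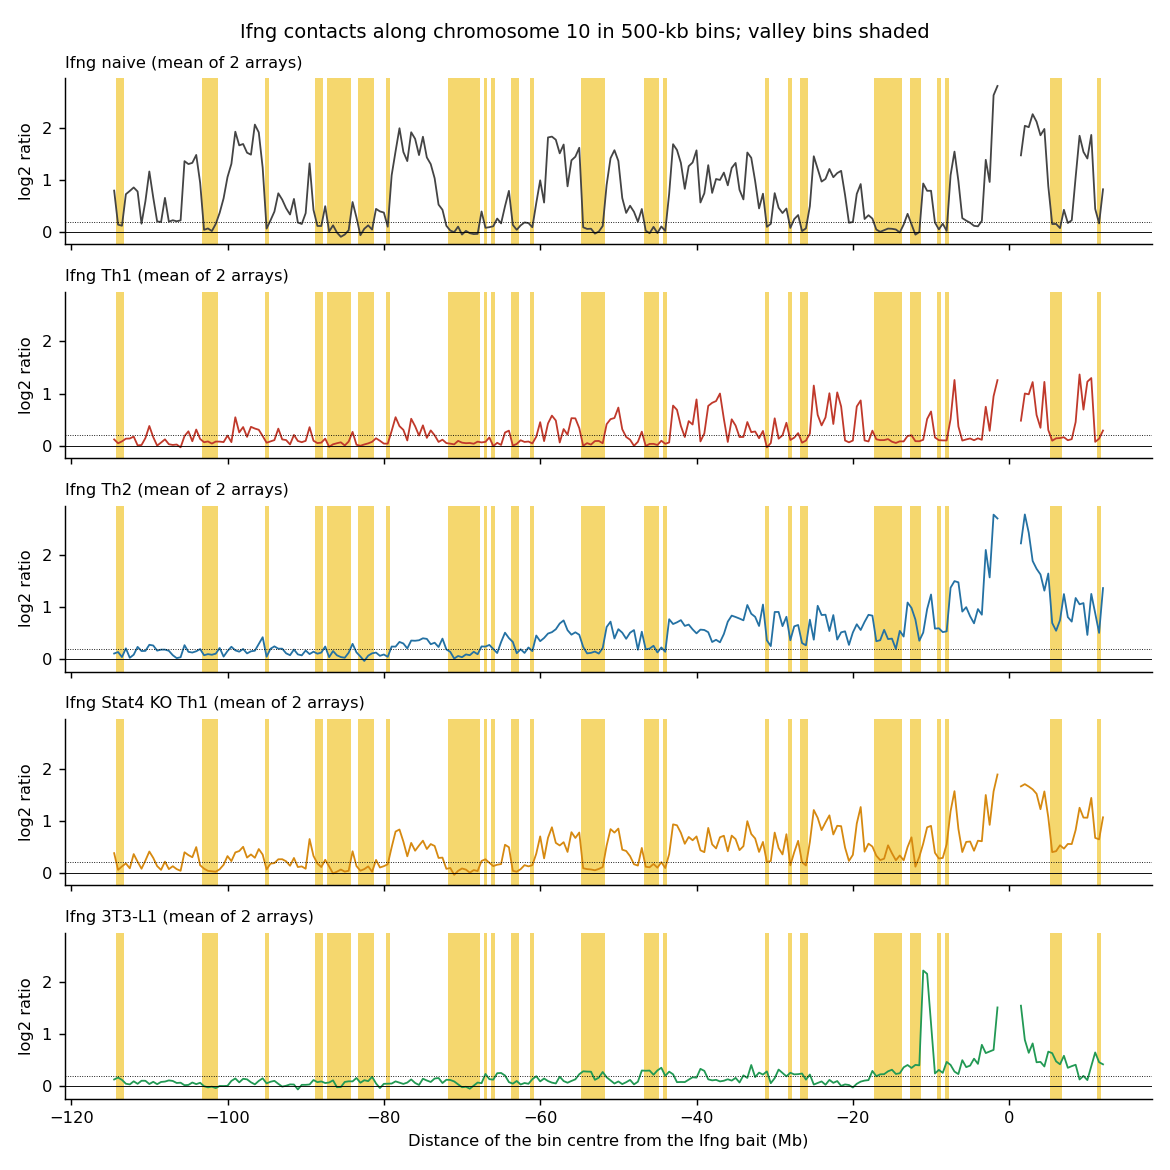
Mean log2 ratio of 2 arrays per 500-kb bin of chromosome 10 (vertical axis) against distance from the Ifng bait in Mb (horizontal axis), 1 panel per Ifng-bait group, with the 64 valley bins shaded and the 0.2 threshold dotted; bins within 1 Mb of the bait are left out. Most shaded bins within 20 Mb of the bait lie above the dotted line in Th2, Stat4 KO Th1 and 3T3-L1 cells (15, 11 and 12 of 16 in both arrays), all lie below it in Th1 cells, and those over 50 Mb away lie near 0 in most panels.

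The 6 valleys with the most bins show the range of behaviour, and they are described from the far end of the chromosome toward the bait. At chr10:30500001-33500000, 6 bins in band 10qA4, Th1 arrays read 0.058 and 0.0059, Th2 arrays 0.051 and 0.10, Stat4 KO Th1 arrays 0.061 and 0.025, and 3T3-L1 arrays 0.095 and 0.022. At chr10:34500001-36500000, 4 bins in 10qB1, the 8 arrays other than naive lay between 0.017 (Th2) and 0.14 (3T3-L1). The longest valley, chr10:46000001-50000000, 8 bins spanning 10qB2 and 10qB3, read 0.040 and 0.064 in Th1, 0.046 and 0.12 in Th2, 0.018 and 0.064 in Stat4 KO Th1, and 0.077 and -0.0056 in 3T3-L1 cells. These 3 valleys, all more than 50 Mb from the bait, were low in all 10 Ifng arrays, in the naive arrays by the rule. The arrays of Th1, Th2 and Stat4 KO Th1 cells overlapped.

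Nearer the bait the cell types parted. At chr10:63000001-66000000, 6 bins in 10qB4 and 10qB5.1, 3T3-L1 arrays read 0.23 and 0.25, Th2 arrays 0.12 and 0.20, Stat4 KO Th1 arrays 0.084 and 0.069, and Th1 arrays 0.073 and 0.023. At chr10:71000001-73000000, 4 bins in 10qB5.3, the order was the same: 0.27 and 0.30 in 3T3-L1, 0.17 and 0.22 in Th2, 0.085 and 0.16 in Stat4 KO Th1, and 0.055 and -0.020 in Th1 cells. In both valleys the 3T3-L1 arrays were the highest and did not overlap with any T cell array. At chr10:100500001-104000000, 7 bins in 10qD1, Th2 arrays read 0.35 and 0.45, Stat4 KO Th1 arrays 0.24 and 0.43, 3T3-L1 arrays 0.30 and 0.20, and Th1 arrays 0.13 and 0.058. Here the Th1 arrays lay below those of the other 3 groups. The Th2 arrays lay above the 3T3-L1 arrays, and the knockout arrays overlapped with both.

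Smaller valleys closer to the bait, singled out after their values were seen, carried the highest signal. At chr10:105000001-106500000, 3 bins in 10qD1, Th2 arrays read 0.79 and 0.61, Stat4 KO Th1 arrays 0.27 and 0.47, 3T3-L1 arrays 0.40 and 0.38, and Th1 arrays 0.20 and 0.047. The adjoining bin toward the bait, chr10:106500001-107000000, is no member and had the highest mean of the 3T3-L1 arrays among bins over 5 Mb from the bait, 2.12 and 2.33 (2.14 and 2.18 in the bin after it), where naive arrays read 0.92 and 0.94. At chr10:123000001-124500000, 3 bins on the telomeric side in 10qD2 and 10qD3, Th2 arrays read 0.66 and 0.67, 3T3-L1 arrays 0.54 and 0.49, Stat4 KO Th1 arrays 0.37 and 0.52, and Th1 arrays 0.21 and 0.040. In both of these valleys the Th2 arrays were the highest of the 4 groups and the Th1 arrays the lowest, without overlap between them.

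**Figure D2:**
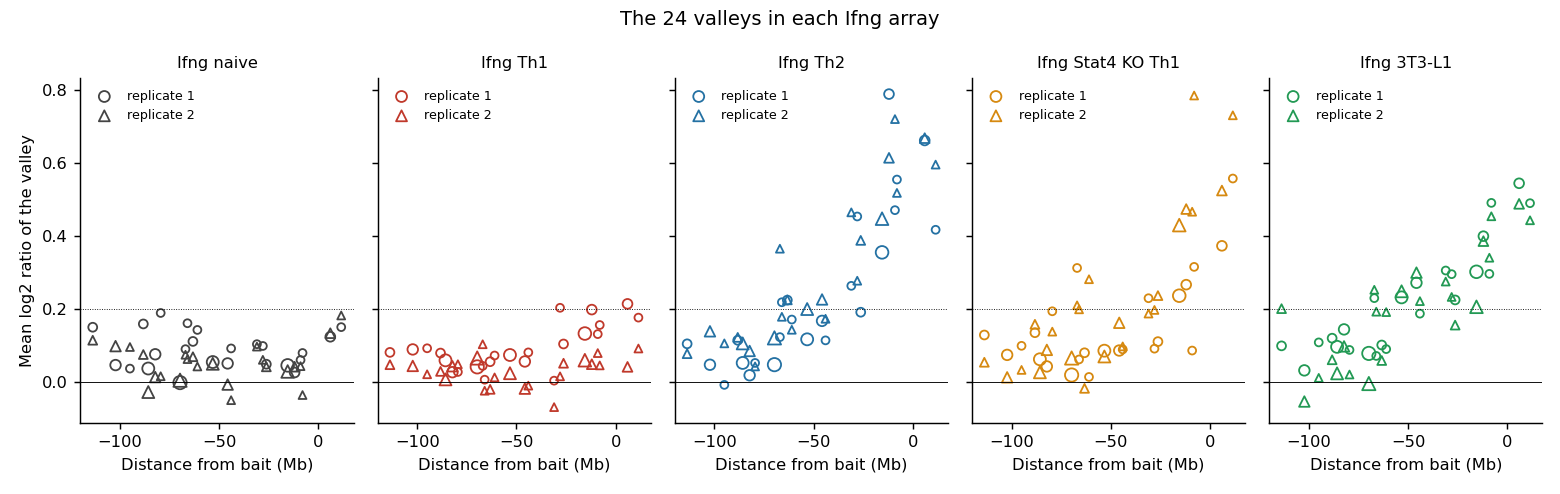
Mean log2 ratio of each of the 24 valleys (vertical axis) against its distance from the Ifng bait in Mb (horizontal axis) in each Ifng array; circles are replicate 1, triangles replicate 2, marker size follows the number of bins, and the dotted line is the 0.2 threshold. Th2, Stat4 KO Th1 and 3T3-L1 panels climb toward the bait, up to 0.79 in Th2 and 0.78 in Stat4 KO Th1 cells, while the highest Th1 point is at 0.21.

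Averaged over the 64 bins, signal was 0.060 ± 0.038 in Th1 cells (arrays 0.087 and 0.033), 0.23 ± 0.039 in Th2 cells (0.21 and 0.26), 0.16 ± 0.044 in Stat4 KO Th1 cells (0.13 and 0.19) and 0.18 ± 0.027 in 3T3-L1 cells (0.20 and 0.16). Naive arrays averaged 0.051 ± 0.018, a value fixed by the choice of members. Both Th1 arrays lay below all arrays of the other 3 groups. Both Th2 arrays lay above those of the knockout and 3T3-L1 cells, at the closest with 0.206 against 0.203 in a 3T3-L1 array, and the knockout and 3T3-L1 arrays overlapped. This order holds for the mean of the probes in a bin. With their median, the level was 0.013 in Th1, 0.0041 in Th2, -0.010 in Stat4 KO Th1 and 0.094 in 3T3-L1 cells. Th1 cells were then not the lowest and Th2 cells not the highest. In the 169 other bins the order was different, with 0.86 ± 0.014 in naive, 0.30 ± 0.068 in Th1, 0.48 ± 0.045 in Th2, 0.50 ± 0.020 in Stat4 KO Th1 and 0.17 ± 0.0043 in 3T3-L1 cells. In the T cells the other bins averaged above the members, and in 3T3-L1 cells both sets averaged about the same level.

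No member reached 0.2 in both Th1 arrays, against 42.0% of the other chromosome 10 bins and 0.0419% of bins on other chromosomes. In Th2 cells 20 of 64 members did, against 68.0% of the other chromosome 10 bins and 1.03% off the chromosome. In Stat4 KO Th1 cells 12 did, against 74.0% and 1.09%, and in 3T3-L1 cells 23 did, against 18.9% and 1.57%. In Th2 and Stat4 KO Th1 cells the members' count thus lay between the rates of other chromosomes and of the rest of chromosome 10, and in 3T3-L1 cells it lay above both, as counts with no test. With 0.1 as the threshold for membership, 38 bins remained, and with the median of the probes in place of the mean, 135 bins qualified.

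Position along the chromosome sorted the members, in distance classes set after the values were seen. Among the 16 members within 20 Mb of the bait, 15 were at or above 0.2 in both Th2 arrays, 11 in both Stat4 KO Th1 arrays and 12 in both 3T3-L1 arrays. Of the 28 other bins at that distance, 28, 27 and 20 were, so the share was higher outside the valleys in Th2 and knockout cells and about equal in 3T3-L1 cells, with no test. Signal there averaged 0.53 ± 0.024 in Th2 (arrays 0.52 and 0.55), 0.39 ± 0.15 in Stat4 KO Th1 (0.28 and 0.50), 0.36 ± 0.041 in 3T3-L1 (0.39 and 0.33) and 0.11 ± 0.076 in Th1 cells (0.16 and 0.055). In the 28 other bins at that distance it averaged 0.92 ± 0.12, 0.76 ± 0.12, 0.47 ± 0.0023 and 0.43 ± 0.098 in the same order. In each of these 4 groups the members near the bait averaged below the other bins at the same distance.

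Among the 9 members at 20 to 50 Mb, signal averaged 0.25 ± 0.056 in Th2, 0.14 ± 0.049 in Stat4 KO Th1, 0.25 ± 0.0067 in 3T3-L1 and 0.037 ± 0.059 in Th1 cells. The 51 other bins there averaged 0.63 ± 0.050, 0.61 ± 0.068, 0.15 ± 0.00084 and 0.40 ± 0.070 in that order. Beyond 50 Mb, the 39 members averaged 0.11 ± 0.041, 0.071 ± 0.0021, 0.096 ± 0.026 and 0.045 ± 0.017, and the 90 other bins 0.26 ± 0.018, 0.35 ± 0.037, 0.088 ± 0.0070 and 0.20 ± 0.057. At both distances members thus averaged below the other bins in Th2, knockout and Th1 cells. In 3T3-L1 cells they averaged above them at 20 to 50 Mb and about the same beyond. Bins on other chromosomes averaged 0.051 and 0.047 in the Th2 arrays, 0.065 and 0.072 in the knockout and 0.050 and 0.050 in the 3T3-L1 arrays. The Th1 arrays read 0.046 and 0.037 there, and the naive arrays 0.028 and 0.027. The far members thus stood near that level in knockout and Th1 cells. A group of 22 members was below 0.2 in all 10 Ifng arrays, in the 2 naive arrays by the rule, and all 22 lay beyond 50 Mb. This joint count was not made for other bins. Of the 39 members beyond 50 Mb, 39, 31, 34 and 31 were below 0.2 in both arrays of Th1, Th2, Stat4 KO Th1 and 3T3-L1 cells. Of the 90 other chromosome 10 bins there, 45, 26, 19 and 80 were. At the opposite end, 9 members were at or above 0.2 in all 6 arrays of Th2, Stat4 KO Th1 and 3T3-L1 cells, and these lay within 20 Mb: 2 in chr10:102000001-103000000, chr10:105000001-105500000, chr10:106000001-106500000, the 3 bins of chr10:123000001-124500000, chr10:109500001-110000000 and chr10:129000001-129500000. The joint count over these 6 arrays was not made for the 28 other bins at that distance. Group by group, 28, 27 and 20 of them reached 0.2 in both arrays, so the 9 are no group set apart from the rest.

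In members near the bait, high readings sat on a minority of probes. Within 20 Mb, the share of probes reading 1 or above was 19.2% ± 1.90 in Th2, 18.7% ± 4.52 in Stat4 KO Th1, 14.7% ± 0.39 in 3T3-L1 and 3.83% ± 3.29 in Th1 cells, against 6.24% ± 0.45 in naive cells. The median probe there stood at 0.068 in Th2, 0.035 in Stat4 KO Th1, 0.038 in Th1 and -0.038 in naive cells, and at 0.22 in 3T3-L1 cells. In T cells a typical probe of a valley thus stayed near the level of other chromosomes while some fragments read high, and in 3T3-L1 cells the typical probe read above that level too. Over all 64 members the share of such probes was 9.60% ± 1.58 in Th2, 9.25% ± 1.23 in Stat4 KO Th1, 8.37% ± 0.54 in 3T3-L1, 5.15% ± 0.044 in naive and 2.05% ± 1.36 in Th1 cells, and 0.93% to 2.52% in the Il4-bait groups. In the 169 other chromosome 10 bins it was 14.9%, 21.9%, 7.25%, 32.6% and 12.4% in the same order of Ifng groups. The median probe of those bins stood at 0.095, 0.105, 0.05, 0.24 and 0.07. High readings on a minority of probes were thus not particular to the valleys. Off chromosome 10 the share was 2.14%, 3.97%, 3.25%, 2.65% and 1.65%.

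Th1 cells were compared with Th2 cells to ask whether the valleys differ between cells that use Ifng and cells that keep it silent. Of the 64 members, 21 had lower signal in the Th1 than in the Th2 maps and 0 had higher signal (limma, Benjamini-Hochberg adjusted p under 0.05 over 5021 bins). In both Th1 arrays each of these 21 lay below both Th2 arrays. Here and below, such separation of arrays was not counted for called bins outside the valleys, so it describes the members only. The background was 2.71% of all bins and 37.3% of the other chromosome 10 bins called lower, and 0.339% and 7.69% called higher, so the members' share of lower calls stood near that of the rest of the chromosome. Lower were 14 of 16 members within 20 Mb of the bait, 4 of 9 at 20 to 50 Mb and 3 of 39 beyond. The other chromosome 10 bins followed the same gradient, with 22 of 28, 30 of 51 and 11 of 90 lower. The median change was -0.11 over members and -0.13 over the other chromosome 10 bins, and at an unadjusted p under 0.05 the members gave 31 lower and 0 higher. At that p the 169 other chromosome 10 bins gave 86 lower and 21 higher, and all 5021 bins 595 and 258.

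The bin with the largest change was chr10:105000001-105500000 in 10qD1, with 0.33 and 0.063 in the Th1 arrays and 1.02 and 0.95 in the Th2 arrays. It was lower in Th1 cells by a log2 change of -0.79 (SE 0.084, limma adjusted p = 1.23e-05). Its neighbour chr10:105500001-106000000 read 0.13 and 0.045 in Th1 and 0.99 and 0.53 in Th2 cells, a change of -0.68 (SE 0.11, limma adjusted p = 0.0010). Neither bin showed overlap of arrays.

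On the telomeric side, chr10:123000001-123500000 in 10qD2 read 0.13 and 0.060 in Th1 and 0.76 and 0.63 in Th2 cells, a change of -0.60 (SE 0.052, limma adjusted p = 1.04e-06). The bin chr10:124000001-124500000 in 10qD3 read 0.21 and 0.076 against 0.75 and 0.75, a change of -0.60 (SE 0.071, limma adjusted p = 3.37e-05). In 10qD1, chr10:108500001-109000000 read 0.13 and 0.078 against 0.47 and 0.72, a change of -0.49 (SE 0.092, limma adjusted p = 0.0044). In each of these 3 bins the higher Th1 array lay well below the lower Th2 array.

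Without the Th1 array that stood apart, 10 members were lower, 8 of them within 20 Mb, and the 5 named bins stayed called. The count was 7 after each array was divided by its spread off the bait chromosomes and 1 with the median of the probes per bin. Leading digits of the array number, a possible batch, were shared by Th1 replicate 2 and both Th2 arrays, and with Th1 replicate 1 left out 18 members were lower.

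Stat4 KO Th1 cells lack the Stat4 signal under the Th1 condition, and were compared with Th1 and with Th2 cells. Against Th1 cells, 8 members were higher and 0 lower (limma, adjusted over 5021 bins), against a background of 1.99% of all bins and 29.6% of the other chromosome 10 bins called higher, and 0.0398% and 1.18% called lower. Of the 8, 7 lay within 20 Mb of the bait and 1 at 20 to 50 Mb, where 13 of 28 and 18 of 51 other bins were higher (beyond 50 Mb, 19 of 90), and the arrays of the groups did not overlap in any of the 8. At an unadjusted p under 0.05 the members gave 22 higher and 0 lower, and the median change was 0.055 against 0.19 in the other chromosome 10 bins. At that p the 169 other chromosome 10 bins gave 109 higher and 6 lower, and all 5021 bins 692 and 90. The members' share of calls was below that of the other chromosome 10 bins.

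The telomeric bin chr10:129000001-129500000 in 10qD3 read 0.56 and 0.73 in the knockout and 0.18 and 0.090 in Th1 cells, a change of 0.51 (SE 0.064, limma adjusted p = 0.00028). The bin chr10:105000001-105500000 read 0.53 and 0.83 against 0.33 and 0.063, a change of 0.48 (SE 0.084, limma adjusted p = 0.0041). In 10qD1, chr10:109500001-110000000 read 0.31 and 0.78 against 0.15 and 0.044, a change of 0.45 (SE 0.096, limma adjusted p = 0.019). The knockout arrays differed from each other by as much as this change, yet both lay above both Th1 arrays.

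The bin chr10:102000001-102500000 read 0.40 and 0.66 in the knockout and 0.16 and 0.092 in Th1 cells, a change of 0.40 (SE 0.068, limma adjusted p = 0.0033). The bin chr10:124000001-124500000 read 0.43 and 0.62 against 0.21 and 0.076, a change of 0.38 (SE 0.071, limma adjusted p = 0.0061). Without Th1 replicate 2 the count was 1, chr10:129000001-129500000, and without knockout replicate 2 it was 3. After rescaling of the arrays, or with the median per bin, 0 were called, with 14 and 4 members at an unadjusted p under 0.05.

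Against Th2 cells, 3 members were lower in the knockout and 0 higher (limma), against a background of 0.597% of all bins and 10.7% of the other chromosome 10 bins called lower, and 0.856% and 13.0% called higher. At an unadjusted p under 0.05 there were 14 lower and 2 higher, beside 38 and 49 of the 169 other chromosome 10 bins and 177 and 511 of all 5021. The bin chr10:105500001-106000000 read -0.036 and 0.27 in the knockout and 0.99 and 0.53 in Th2 cells, a change of -0.64 (SE 0.11, limma adjusted p = 0.0040). The bin chr10:123000001-123500000 read 0.36 and 0.44 against 0.76 and 0.63, a change of -0.30 (SE 0.052, limma adjusted p = 0.0059).

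The remaining called bin, chr10:54000001-54500000 in 10qB3, lay more than 50 Mb from the bait and read 0.10 and -0.024 in the knockout and 0.26 and 0.40 in Th2 cells, a change of -0.29 (SE 0.055, limma adjusted p = 0.0088). No bin of the 3 had overlapping arrays. With the compared groups alone in the fit, 1 of the 3 was called, and without knockout replicate 2 the count was 6. The knockout arrays share a series of array numbers with no other Ifng group, so array series and genotype cannot be told apart. The 3 comparisons among Th1, Th2 and knockout cells share arrays, so their calls are not independent.

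3T3-L1 cells, a non-lymphoid line, were compared with the mean of Th1 and Th2 cells. Of the members 8 were higher in 3T3-L1 cells and 0 lower (limma, adjusted over 5021 bins), against a background of 3.19% of all bins and 2.37% of the other chromosome 10 bins called higher. Called lower were 2.29% of all bins and 50.3% of the other chromosome 10 bins, of which 4 were higher and 85 lower. The median change was 0.035 in members and -0.19 in the others. Members were chosen by low signal in naive T cells, so a contrast with T cells is not free of that choice. Its part in these counts was not tested. Of the 8 members, 3 lay in chr10:63000001-66000000 and 3 in chr10:71000001-73000000, and 6 had no overlap of arrays. Without Th1 replicate 2, 6 of the 8 stayed higher and 1 member was lower, chr10:105000001-105500000, at -0.30 (SE 0.067, limma adjusted p = 0.012), against -0.24 (limma adjusted p = 0.075) with all arrays. At an unadjusted p under 0.05 the members gave 14 higher and 4 lower. The 169 other chromosome 10 bins gave 7 higher and 113 lower at that p, and all 5021 bins 509 and 432.

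In 10qB5.3, chr10:72500001-73000000 read 0.28 and 0.34 in 3T3-L1, 0.030 and -0.0064 in Th1, and 0.12 and 0.14 in Th2 cells, a change of 0.24 (SE 0.038, limma adjusted p = 0.00081). In the same valley, chr10:71000001-71500000 read 0.30 and 0.30, against 0.028 and -0.043 in Th1 and 0.17 and 0.21 in Th2 cells, a change of 0.21 (SE 0.039, limma adjusted p = 0.0029). The bin chr10:71500001-72000000 read 0.27 and 0.34, against 0.085 and -0.020 in Th1 and 0.15 and 0.26 in Th2 cells, a change of 0.19 (SE 0.048, limma adjusted p = 0.030). The last of these was not called without Th1 replicate 2 (limma adjusted p = 0.11).

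In 10qB5.1, chr10:64000001-64500000 read 0.23 and 0.34 in 3T3-L1, 0.018 and 0.022 in Th1, and 0.069 and 0.18 in Th2 cells, a change of 0.21 (SE 0.045, limma adjusted p = 0.0080). Next to it in 10qB4, chr10:63500001-64000000 read 0.30 and 0.27, against 0.060 and 0.035 in Th1 and 0.054 and 0.17 in Th2 cells, a change of 0.21 (SE 0.043, limma adjusted p = 0.0076). Leaving out 3T3-L1 replicate 1 left 2 called members and leaving out replicate 2 left 1. The 3T3-L1 arrays carry array numbers of series found in no other group, so series and cell type cannot be told apart.

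The Il4-bait maps show what chromosome 10 reads when the bait sits elsewhere. Over the 64 members the Il4-bait arrays averaged -0.044 ± 0.087 in naive, -0.030 ± 0.034 in Th1, -0.023 ± 0.0034 in Th2 and -0.012 ± 0.049 in Stat6 KO Th2 cells. The 169 other chromosome 10 bins averaged 0.0075 ± 0.0034, 0.068 ± 0.0064, 0.033 ± 0.017 and 0.087 ± 0.0030 in the same order. Members thus averaged lower from the Il4 bait too, except in naive replicate 1, with 0.017 against 0.0052. In Th2 cells, 29 members read higher from the Ifng bait than from the Il4 bait and 0 lower (limma, adjusted over 5016 bins), against 2.99% of all bins and 60.4% of the other chromosome 10 bins called higher, and 0.199% and 0.00% called lower. They included all 16 members within 20 Mb, 7 of 9 at 20 to 50 Mb and 6 of 39 beyond, beside 27 of 28, 43 of 51 and 32 of 90 other chromosome 10 bins. The arrays overlapped in none of the 29. In Th1 cells 2 members were higher and 0 lower, against 2.55% and 36.1% called higher and 7.81% and 0.592% called lower, and 13 were higher at an unadjusted p under 0.05. Of the 169 other chromosome 10 bins 92 were higher at that p, and of all 5016 bins 548. The difference between these bait effects was not tested as such.

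In Th2 cells the largest bait difference was at chr10:105000001-105500000, where the Ifng-bait arrays gave 1.02 and 0.95 and the Il4-bait arrays 0.041 and -0.012, a change of 0.97 (SE 0.075, limma adjusted p = 1.97e-05). The bin chr10:124000001-124500000 gave 0.75 and 0.75 from Ifng and -0.0055 and -0.0052 from Il4, a change of 0.75 (SE 0.048, limma adjusted p = 5.82e-06). The changes at chr10:105500001-106000000, chr10:123000001-123500000 and chr10:108500001-109000000 were 0.81, 0.69 and 0.63, with limma adjusted p of 0.0015, 1.24e-05 and 0.00027. Il4-bait arrays lay between -0.077 and 0.041 in these 5 bins, and Ifng-bait arrays between 0.47 and 1.02.

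In Th1 cells the called bins were chr10:100500001-101000000 in 10qD1, with 0.14 and 0.10 from the Ifng bait and -0.098 and -0.18 from the Il4 bait (change 0.26, SE 0.043, limma adjusted p = 0.0054), and chr10:15000001-15500000 in 10qA2, with 0.091 and 0.068 against -0.057 and -0.15 (change 0.18, SE 0.046, limma adjusted p = 0.035). The next bin by p, chr10:16000001-16500000 in 10qA2, did not pass, with 0.094 and 0.061 against -0.064 and -0.075 (change 0.15, SE 0.046, limma adjusted p = 0.067). Ifng signal in these 3 bins was below 0.15 in each Th1 array, and each Il4-bait array read below 0. The Th1 count was 0 without Th1 replicate 1 and 3 without Th1 replicate 2. The Th2 count was 14 without Il4-bait Th2 replicate 2, 17 without either Ifng-bait Th2 replicate 2 or Il4-bait Th2 replicate 1, and 1 with the median per bin. The count of 0 is also the value within 1 series of array numbers in Th1 cells, with 4 members at an unadjusted p under 0.05 (limma), and 17 that within 1 series in Th2 cells.

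**Figure D3:**
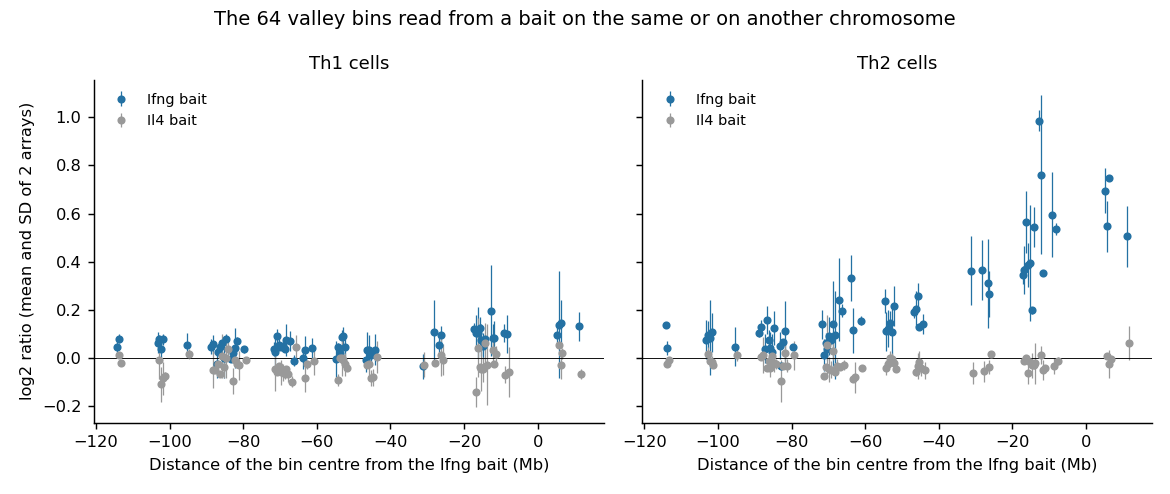
Log2 ratio of the 64 valley bins (vertical axis, mean and SD of 2 arrays) against distance from the Ifng bait in Mb (horizontal axis), in Th1 cells (left) and Th2 cells (right), from the Ifng bait on the same chromosome (blue) and from the Il4 bait on chromosome 11 (grey). In Th2 cells the blue points lie furthest from the grey ones near the bait and reach 0.98, and some lie apart beyond 50 Mb too (6 of 39 called higher). In Th1 cells the highest blue point is at 0.20.

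The step in signal at the edges of the valleys differed between the groups. Just inside an edge, over 48 edges, naive signal was 0.070 ± 0.026, and in the first bin outside, over 47 edges, it was 0.48 ± 0.0036, values shaped by the rule. It went on to 0.94 ± 0.013 at 1.75 Mb outside, over the 25 edges that had no other valley up to there. The points at different distances are thus not from the same set of edges. Th2 signal went from 0.27 ± 0.033 inside to 0.47 ± 0.071 in the first bin outside, and Stat4 KO Th1 signal from 0.20 ± 0.058 to 0.37 ± 0.028. Th1 signal went from 0.059 ± 0.042 to 0.16 ± 0.051 and to 0.33 ± 0.066 in the next bin, over 35 edges. The 3T3-L1 signal was 0.22 ± 0.014 inside and 0.24 ± 0.014 outside, the smallest step of the 5 groups. The edges were drawn on naive T cells, and the part of this choice in the steps of the other groups was not tested.

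**Figure D4:**
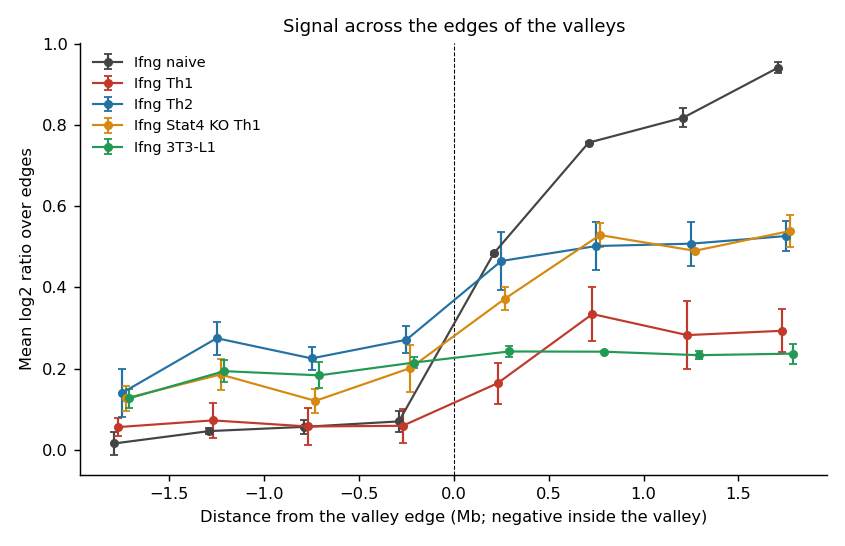
Mean log2 ratio over valley edges (vertical axis; points are means and bars SDs of 2 arrays) against distance from the edge in Mb (horizontal axis, negative inside the valley) for the 5 Ifng-bait groups, drawn with small sideways shifts. Naive signal climbs from 0.070 to 0.94, Th1, Th2 and Stat4 KO Th1 signal climbs less, and the 3T3-L1 line is nearly level across the edge, at 0.22 inside and 0.24 outside. The number of edges falls with distance, from 48 to 14 inside and from 47 to 25 outside, so the points do not share 1 set of edges.

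The valleys were also distributed unevenly over the cytogenetic bands, a property the rule did not use. Bands of the darkest Giemsa stain, which marks gene-poor chromatin, held 56.3% of the members and 36.1% of the other bins. Unstained bands held 34.4% of the members and 45.6% of the others, and light grey bands 9.38% and 18.3%. Of the 99 unstained bins, 29 lay in band 10qC1, which held 1 of the 22 unstained members. The unstained contrast thus rests largely on that band. In a RefSeq table of the GRCm38.p6 build the darkest bands of chromosome 10 had 3.65 protein-coding genes per Mb, against 9.54 in unstained and 12.7 in light grey bands. The unstained value includes 10qC1, with 22.0, while the other unstained bands had from 3.04 (10qC3) to 9.88 (10qB4). Members thus lay more in dark, gene-poor bands than the rest of the chromosome did, as a description of 1 chromosome.

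Among the 15 bands with 5 or more eligible bins, the share of members was highest in 10qB5.1, with 4 of 7 bins (57.1%), followed by 10qB3 with 8 of 16 (50.0%) and 10qD1 with 12 of 26 (46.2%). In 10qD2, which holds Ifng and had 4 eligible bins, 2 were members. In the gene-rich band 10qC1, with 22.0 protein-coding genes per Mb, 1 of 29 bins (3.45%) was a member. Across the same 15 bands, share and gene density were related at Pearson r = -0.455 and Spearman rho = -0.539, a description of neighbouring bands that share arrays and probes. Some bands departed from this: gene-poor 10qA1, with 3.51 genes per Mb, had 2 members in 20 bins, and 10qC3, with 3.04, had 0 in 6.

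**Figure D5:**
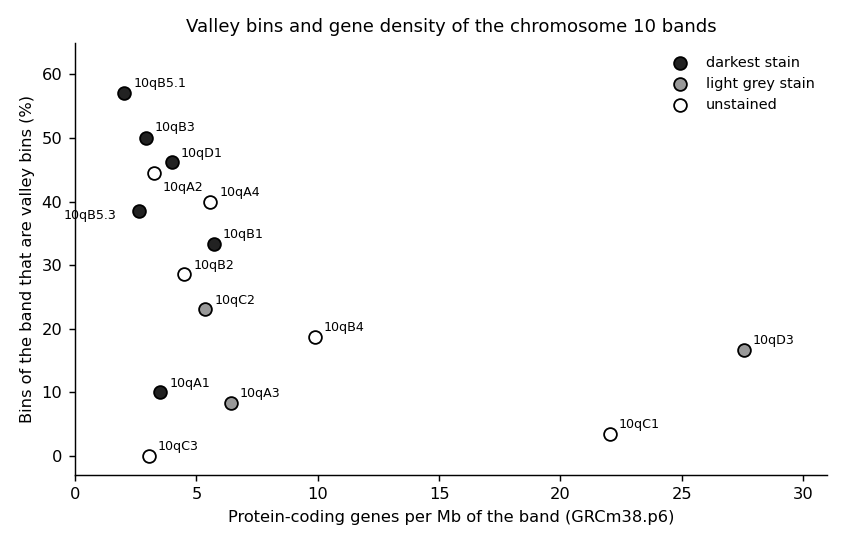
Share of a chromosome 10 band's bins that are valley bins, in percent (vertical axis), against protein-coding genes per Mb of the band in GRCm38.p6 (horizontal axis) for the 15 bands with 5 or more eligible bins; fill shows the stain. Bands above 30% all have fewer than 6 genes per Mb, and the gene-rich bands 10qC1 and 10qD3 stand at 3.45% and 16.7%.

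Known genes of chromosome 10 were placed in bands alone, so a gene may lie outside the valleys of its band. The lists were drawn up with earlier results of these data known. Of 17 placed genes of neurons, matrix and other restricted tissues, 13 lay in bands whose share of members exceeded the 27.5% of the whole chromosome. The list holds 2 genes that many tissues express, the replication and repair helicase gene Mcm9 and the Golgi mannosidase gene Man1a, and without them the count was 11 of 15. Of all 723 protein-coding genes placed the same way, 147 (20.3%) lay in such bands. The genes of a list are not independent: 7 of the 17 lay in 10qD1 alone. These include Syt1, a calcium sensor of synaptic vesicles, Nav3, a neuron navigator, Nts, which encodes neurotensin, Slc6a15, an amino acid transporter, and Alx1, a homeobox gene of craniofacial development, all in 10qD1, and Ros1, a receptor tyrosine kinase, in 10qB3. Lama2, a laminin chain, lay in 10qA4 (40.0%). The matrix genes Dcn, Lum and Kera, which encode decorin, lumican and keratocan, lay in 10qC3, which held no member.

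Of 13 placed genes listed as immune, 4 lay in bands above 27.5%: the T cell kinase gene Fyn and the interleukin 17 adaptor gene Traf3ip2 in 10qB1 (33.3%), and Prdm1, which encodes the repressor Blimp-1, and the surface glycoprotein gene Cd24a in 10qB2 (28.6%). The 13 include Perp in 10qA3 (8.33%) and Ddit3 in 10qD3 (16.7%), which are not particular to immune cells. Ifngr1, a chain of the interferon gamma receptor, and Tnfaip3, an inhibitor of NF-kappa B signalling, lay in 10qA3 (8.33%), perforin, Prf1, in 10qB4 (18.8%), and Stat2 and Stat6, which carry interferon and interleukin 4 signals, in 10qD3 (16.7%). Of 8 placed widely expressed genes, 1 lay in such a band, the histone deacetylase gene Hdac2 in 10qB1. Translation factor Eef2, respiratory chain gene Ndufs7 and ATP synthase gene Atp5d lay in 10qC1 (3.45%). Of the 8, 6 lay in 10qC1, so this count too rests largely on 1 band.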

How the data were processed

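The authors deposited 1 log2 ratio of Cy5 (4C DNA) over Cy3 (digested genomic DNA) per probe for 18 arrays of 384942 probes, 19736 of them on chromosome 10. Chromatin was digested with HindIII, ligated, recut with Csp6I, ligated and amplified from the bait, per the labels' protocols. The base of the logarithm was taken as 2. The scanner software, normalization and build are not given in the sources used here. Probe positions lay within the chromosome ends of mm8 (0 of 21 chromosomes passed, against 15 for mm7, 5 for mm9 and 8 for mm10), and bands came from circlize 0.4.16. Groups came from the titles.

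From each array the median of the probes off chromosome 10 (off 10 and 11 in the bait comparison) was subtracted, and values were averaged in 500-kb bins of 20 or more probes, without normalization between arrays. The fits omitted bins within 1 Mb of a bait. All bins were fitted together (R 4.3.3, limma 3.58.1, lmFit, contrasts.fit and eBayes), two-sided, with Benjamini-Hochberg adjustment over all bins at 0.05. The 8 Ifng arrays other than naive shared 1 fit, and the Th1 and Th2 arrays of both baits another. On simulated data with 200 changed bins, the Th1 with Th2 fit recovered 47.3% of changes of 0.2 and 95.3% of changes of 0.4, and 3.31% of its calls were false. The fit of Ifng against Il4 bait in Th2 cells recovered 46.5% and 84.8%, with 8.39% false calls, above the nominal rate. Array number limits precision, and p-values measure the spread between these arrays. Tables used Python 3.11.15 with numpy 2.4.6, pandas 2.3.3 and matplotlib 3.10.9.

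The members, gene lists and tests were chosen with earlier results of these data known. Named are the 6 valleys with the most bins and, per comparison, at most the 5 called members with the largest change in each direction whose arrays do not overlap, or, with fewer than 5 calls, the 3 with the smallest p. Gene symbols came from RefSeq (GRCm38.p6), and genes near a band edge or in bands mostly near the bait were left unplaced: 13 of 16 immune, 17 of 27 tissue-restricted and 8 of 14 widely expressed genes were placed.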

Additional observations from a re-analysis of the deposited data

How the results depend on the processing

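Membership depended on the threshold: 38 bins (16.3%) at 0.1, and 135 (57.9%) with the median of probes, in place of 64. With 1 naive array left out, 77 to 80 bins qualified. With the median of probes, the level of the members was 0.013 in Th1, 0.0041 in Th2, -0.010 in Stat4 KO Th1, 0.094 in 3T3-L1, -0.073 in Il4-bait Th1 and -0.038 in Il4-bait Th2 cells. The order of Th1, Th2 and knockout cells found with the mean was thus not kept. It was 0.19 in Th2 at threshold 0.1, and -0.028 and -0.017 in Il4-bait Th2 cells at 0.1 and 0.3. Counts of called members, in the order Th1 minus Th2, knockout minus Th1, knockout minus Th2, 3T3-L1 minus T cells, and Ifng minus Il4 bait in Th1 and in Th2 cells, were 21, 8, 3, 8, 2 and 29. At threshold 0.1, which leaves fewer members, they were 8, 2, 1, 5, 2 and 13, and at 0.3, 6 in the third and 5 in the fifth. With the median they were 1, 0 (4 at an unadjusted p under 0.05), 0 (4 likewise), 12, 6 and 1. Scaling by spread gave 7, 0 (14 at an unadjusted p under 0.05) and 1 in the first 3, quantile normalization 8 and 1 in the first 2 and 19 in the last, trend and robust eBayes 13 and 3 in the first 2, and 1000-kb bins 5 in the second and 18 in the last. The compared groups alone gave 1 in the third and 1 in the fifth, and array series as a block 18 in the first, 1 in the fifth and 23 in the last. Leaving out 1 array gave 10 to 19, 1 to 13, 3 to 6, 1 to 10, 0 to 5 and 14 to 25. The lowest were without Th1 replicate 2 (10 and 1), 3T3-L1 replicate 2 (1; without replicate 1, 2), Ifng-bait Th1 replicate 1 (0, with 4 at an unadjusted p under 0.05) and Il4-bait Th2 replicate 2 (14). Knockout replicate 1 left out gave 13 against Th1, and 5 against Th2, of which 2 were higher; Th2 replicate 1 left out gave 5 there. Il4-bait Th1 replicates left out gave 5 and 1. At the remaining settings, counts stayed within 1.5 times. Arrays of 1 replicate number did not deviate together throughout: r of replicate differences ran from -0.19 to 0.19 over the 7 pairs of directly compared groups and from -0.39 to 0.46 over all 36 pairs, the highest for the naive maps of both baits, with 0.38 for Ifng Th1 and Il4 Th2 within the bait fit. Since pairs of both signs occur, the numbers were not taken to pair arrays; with the replicate block the counts were 18, 7, 3, 8, 2 and 30. Of 327 settings of named bins, 264 kept direction and call, 59 lost the call, 3 gained it and 1 reversed: Th1 minus Th2 at chr10:108500001-109000000, at 0.045 with the median. The cause of these moves was not tested.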
